A study of Mus musculus with 7 samples.

Results

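The respiratory chain was examined gene by gene in CD8 T cells labelled as knockout for ATP-citrate lyase (ACLY), the cytosolic enzyme that makes acetyl-CoA from citrate. A gene was taken as a member if its symbol names a subunit of complexes I to V or cytochrome c, by name stems such as Nduf, Sdh, Uqcr, Cox, Atp5 and the mitochondrial ND, COX, CYTB and ATP names, with pseudogenes left out. This gave 88 of the 16156 genes in the count table, 80 encoded in the nucleus and 8 in mitochondrial DNA. The table writes the mitochondrial genes without the usual prefix (ND1 for mt-Nd1), so these 8 were found by gene identifier. A further 5 mitochondrial protein genes (mt-Nd4l, mt-Co2, mt-Co3, mt-Atp6 and mt-Atp8) were not analysed here, nor were the isoforms Cox4i2, Cox6a2, Cox7b2, Cox8b, Cox8c and Ndufa4l2. A single row was left out as a pseudogene (Ndufb4c), and Ndufb4 itself, which has no symbol in the table, lay outside the rule. Ndufab1, the acyl carrier subunit of complex I, also lay outside it, since the rule asks for a digit after Nduf and 1 letter; its log2 difference was 0.11 (SE 0.18). Ndufb1 was kept under its symbol in the table, although the annotation names it Ndufb1-ps and types it as a non-coding RNA that shares exons with Cpsf2, so its count and its annotated coding length are doubtful.

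The knockout group (KO) was 3 libraries of ACLY KO OT-I CD8 T cells, and the wild-type group (WT) was 4 libraries of WT OT-I CD8 T cells. OT-I T cells carry a transgenic T cell receptor for an ovalbumin peptide. Both genotypes were congenically marked, of C57Bl/6 strain, placed in C57Bl/6 hosts 1 day before Listeria monocytogenes expressing ovalbumin (LmOVA) was given, and recovered 6 days after that infection for total RNA sequencing. The labels give neither the way Acly was deleted nor the age of the animals, and do not say which libraries came from separate hosts, so p-values measure the spread between these libraries.

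The respiratory chain passes electrons from NADH (complex I) and succinate (complex II) through ubiquinone, complex III and cytochrome c to oxygen at complex IV. The proton gradient this builds drives ATP synthase, complex V. Complexes I, III, IV and V are assembled from subunits of both genomes, the mitochondrial ones lying in the membrane core and the nuclear ones forming most of the rest, while complex II is wholly nuclear-encoded. Activated CD8 T cells are known to enlarge their mitochondria and use both glycolysis and respiration, and memory cells lean on respiration.

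The libraries held 37473484 to 39692359 counts in KO and 45288353 to 75586011 in WT. Acly had 262, 62.0 and 209 CPM in the KO libraries and 393, 339, 414 and 276 CPM in the WT libraries. Every KO library lay below every WT library, with KO library 1 close to WT library 4, and the adjusted p was 0.278 (edgeR quasi-likelihood test). Several libraries stood apart. The 2 Trbv12 segments listed for the OT-I receptor together held 46.7, 23.2 and 61.8% of V beta counts in KO and 99.0, 99.2, 99.0 and 84.5% in WT. These segments went opposite ways in KO, with log2 differences of -2.30 and 2.80, so their sum is not the share of 1 receptor. Summed CPM of 10 B cell genes was 10332, 1158 and 647 in KO, against 318, 245, 352 and 683 in WT; all 10 were above 0 in every KO library, whereas Pax5 had 1, 0, 0 and 0 counts in WT. Red cell genes summed to 46016, 6429.5 and 238 CPM in KO and 7.45, 465, 1.48 and 41.5 CPM in WT, and myeloid genes to 1736, 182 and 1063 CPM in KO and 122, 148, 113 and 143 CPM in WT. The 5 defining T cell genes (Cd8a, Cd8b1, Cd3e, Cd3d and Cd3g) summed to 1876, 5068 and 4897 CPM in KO and 6083, 5261, 5264 and 4709 CPM in WT, lowest in KO library 1. The mean log2 CPM of 20 cell cycle genes was 5.75, 4.14 and 2.71 in KO and 3.82, 3.58, 3.44 and 7.76 in WT, highest in WT library 4. In bulk samples, fewer cells of a type and less RNA per cell cannot be told apart. The main results are also given without KO library 1 and WT library 4.

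Nuclear-encoded subunits had median levels below WT in every complex, and the mitochondrial-encoded subunits as a group did not. Of the 80 nuclear members, 75 had a log2 difference (KO minus WT) below 0, against 50% of all genes, and their median was -0.49. Among other protein-coding genes with a mean log2 CPM of at least 5, the share below 0 was higher, 61.6 to 82.1% depending on annotated exon length. Under upper-quartile scaling 72 nuclear members were below 0, without WT library 4 the number was 70, and without KO library 1 and WT library 4 it was 65. In each of these last runs 87 of the 88 members were tested. Of the 8 mitochondrial members, 3 lay below 0 and 5 above, with a median of 0.12. No member passed the edgeR quasi-likelihood test at an adjusted p of 0.05, and neither did any of the 16156 genes (0%); the smallest adjusted p among members was 0.0661, for Ndufv3. At an unadjusted p under 0.05, 47 members were lower and 0 higher, where 7.89% of all genes were lower and 11% higher. DESeq2 called 26 members lower and 0 higher at an adjusted p of 0.05, where it called 3.43% of the genes it tested lower and 6.81% higher. Limma voom with quality weights called 1, Ndufv3, where 1.68% of all genes were called lower and 5.32% higher. In 43 members every KO library lay below every WT library, a pattern held by 9.03% of all genes, and in 0 members was every KO library above every WT library, where 9.46% of all genes were.

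The lower levels were spread across complexes rather than carried by 1 of them. Among nuclear members the median log2 difference was -0.50 in complex I (35 genes), -0.26 in complex II (4 genes), -0.47 in complex III (9 genes), -0.66 in complex IV (14 genes) and -0.49 in complex V (17 genes). Members lower at an unadjusted p under 0.05 numbered 20, 2, 7, 8 and 10 in complexes I to V, where 7.89% of all genes were lower. Without KO library 1 and WT library 4, 40 of the 87 members then tested were lower at that p, where 14.7% of all genes were, and the nuclear median was -0.38. In that run 4 members (Cox5a, Ndufa3, Ndufb1 and Ndufv3) were lower after adjustment in edgeR, where 4.2% of all genes were. Cox5a, Ndufa3 and Ndufb1 share exons with Gm26631, Tfpt and Cpsf2, so their counts are uncertain. In CPM summed over all nuclear members, the KO libraries held 9356, 9484 and 9233, against 11812, 12416, 10409 and 15669 in the WT libraries. The KO libraries were tightly grouped and all lay below the WT libraries, which ranged widely with WT library 4 on top.

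**Figure D1:**
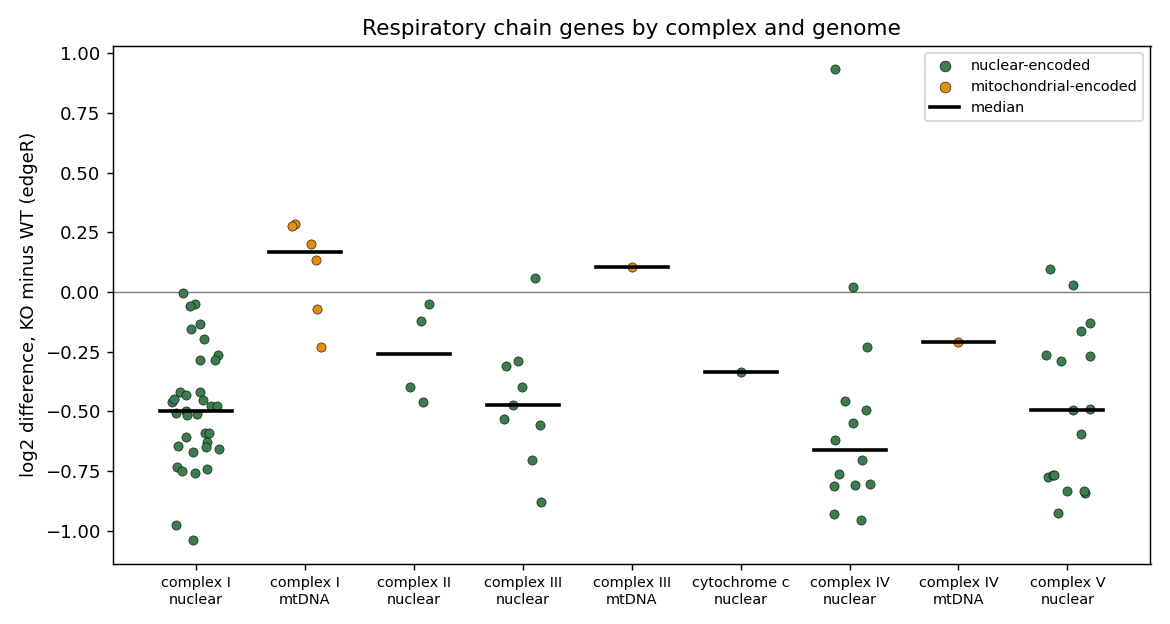
Each point is 1 gene, placed by complex and genome, with its log2 difference between KO and WT (edgeR) on the vertical axis and the median of each column as a bar. Nuclear-encoded columns have medians between -0.66 and -0.26, and the mitochondrial-encoded complex I column has a median of 0.17.

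In complex I, the 35 nuclear members, which do not include Ndufab1, all had an edgeR log2 difference below 0. The nearest to 0 was Ndufa10 at -0.0050, which was 0.0196 in DESeq2, so it has no direction. Ndufv3 (mm10 chr17:31520115-31531331), an accessory subunit of the NADH-oxidizing N module, had 70.8, 76.0 and 75 CPM in the KO libraries and 122, 127, 105 and 143 CPM in the WT libraries. The KO libraries lay close together and below all WT libraries, a log2 difference of -0.75 (SE 0.13) with an adjusted p of 0.0661 in edgeR and 0.000226 in DESeq2. Ndufa1 (chrX:37187588-37191163), a small membrane-arm accessory subunit needed for assembly, had 71.4, 74.1 and 60.7 CPM in the KO libraries and 132, 154, 97.9 and 156 CPM in the WT libraries. The groups did not overlap, and the log2 difference was -0.98 (SE 0.19), with an adjusted p of 0.0704 in edgeR and 0.000452 in DESeq2.

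Ndufb11, a membrane-arm accessory subunit, had 86.9, 86.9 and 86.7 CPM in the KO libraries and 137, 176, 112 and 155 CPM in the WT libraries. Its KO values were nearly identical and all under the WT range (log2 difference -0.74 ± 0.16 SE, edgeR adjusted p = 0.0844). Ndufa13, an accessory subunit at the junction of both arms that is also known as GRIM-19, had 128, 139 and 127 CPM in the KO libraries and 213, 239, 165 and 257 CPM in the WT libraries, again without overlap (log2 difference -0.73 ± 0.17 SE, edgeR adjusted p = 0.0896). Ndufa3, a further membrane-arm accessory subunit, had 119.5, 92.5 and 82.9 CPM in the KO libraries and 182, 157, 136 and 189.9 CPM in the WT libraries. KO library 1 was its highest KO value but stayed under WT library 3, the lowest WT value (log2 difference -0.76 ± 0.18 SE, edgeR adjusted p = 0.0942). Ndufb11, Ndufa13 and Ndufa3 share exons with Rbm10, Tssk6 and Tfpt in the annotation, and Ndufb11 has a near-identical copy, so their counts are uncertain.

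Within complex I the accessory subunits lay further below WT than the core subunits that hold the cofactors. The 28 accessory members had a median of -0.55, with 18 lower at an unadjusted p under 0.05, and the 7 nuclear core members had a median of -0.20, with 2 lower. The share of all genes lower at that p was 7.89%. The core members have coding lengths of 636 to 2181 bases and most accessory members have shorter ones, so class was not separated from coding length. Ndufs7, which carries the last iron-sulfur cluster before ubiquinone, had 123, 134 and 121 CPM in the KO libraries and 136, 125, 129 and 136 CPM in the WT libraries, and its groups overlapped (log2 difference -0.06 ± 0.10 SE). Ndufv1, which binds NADH, had a log2 difference of -0.20 (SE 0.24). By assembly module, the 10 N-module members had a median of -0.61 and 8 were lower at that p, the 6 members of the ubiquinone-reducing Q module had a median of -0.28 and 1 was lower, and the 19 membrane-arm accessory members had a median of -0.50 and 11 were lower. The difference between these classes was not tested.

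In complex II, the succinate dehydrogenase that is also an enzyme of the TCA cycle, the subunits split. Sdha, the flavoprotein that oxidizes succinate, had 382, 355 and 353 CPM in the KO libraries and 403, 356, 411 and 410.1 CPM in the WT libraries. Its groups overlapped through WT library 2, and the log2 difference was -0.12 (SE 0.12). Sdhb, the iron-sulfur subunit, had 173, 191 and 187 CPM in the KO libraries and 236, 244, 224 and 309.6 CPM in the WT libraries, with no overlap and a log2 difference of -0.46 (SE 0.14) and an edgeR adjusted p of 0.155. Among the membrane anchors, Sdhd had 129, 131 and 161 CPM in the KO libraries and 173, 204, 156 and 206 CPM in the WT libraries, with KO library 3 just above WT library 3 and a log2 difference of -0.40 (SE 0.15) and an edgeR adjusted p of 0.214. Sdhc had 94.8, 96.0 and 121 CPM in the KO libraries and 102, 88.1, 98.6 and 142 CPM in the WT libraries. Its groups overlapped throughout, and its log2 difference of -0.05 (SE 0.19) changed sign under upper-quartile scaling and without single libraries, so it has no direction.

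In complex III, 8 of the 9 nuclear members lay below 0. Uqcr10, a small accessory subunit, had 103, 93.2 and 83.9 CPM in the KO libraries and 152, 193, 123 and 218 CPM in the WT libraries. No KO library reached the lowest WT library (log2 difference -0.88 ± 0.21 SE, adjusted p of 0.097 in edgeR and 0.0069 in DESeq2). Uqcrh, the hinge protein that sits beside cytochrome c1, had 119, 116 and 119 CPM in the KO libraries and 191, 243, 146 and 188 CPM in the WT libraries, its KO values lying together under the WT range (log2 difference -0.71 ± 0.17 SE, edgeR adjusted p = 0.101). Uqcr10 has a near-identical copy, so its count is uncertain. Uqcrb, a subunit near the ubiquinone site, had 63.1, 59.0 and 57.5 CPM in the KO libraries and 84.4, 101, 65.6 and 102 CPM in the WT libraries. The groups were separate, but WT library 3 was close to the KO values, and 3 near-identical copies and an overlapping gene make its count uncertain (log2 difference -0.56 ± 0.18 SE).

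The 2 catalytic nuclear subunits of complex III, Cyc1 and Uqcrfs1, differed from each other. Cyc1, cytochrome c1, had 158, 184 and 165 CPM in the KO libraries and 157, 143, 156 and 194 CPM in the WT libraries, with the groups interleaved and a log2 difference of 0.06 (SE 0.14). Uqcrfs1, the Rieske iron-sulfur protein, had a log2 difference of -0.31 (SE 0.13), with every KO library below every WT library. Uqcrc1, which was not counted as catalytic, had a similar log2 difference of -0.29 (SE 0.16), with overlapping groups. Cycs, the cytochrome c that carries electrons on to complex IV, had 34.7, 33.3 and 31.1 CPM in the KO libraries and 41.3, 41.3, 34.9 and 49.0 CPM in the WT libraries. KO library 1 and WT library 3 almost met, the log2 difference was -0.33 (SE 0.16) with an unadjusted p of 0.071 (edgeR quasi-likelihood test), and 4 near-identical copies make this count uncertain.

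In complex IV, 12 of the 14 nuclear members lay below 0. Ndufa4, named for complex I but counted here with complex IV, of which it is a subunit, had 139, 121 and 105 CPM in the KO libraries and 217, 275, 164 and 270.0 CPM in the WT libraries. The KO libraries were well apart from the WT libraries (log2 difference -0.93 ± 0.21 SE, adjusted p of 0.0857 in edgeR and 0.00287 in DESeq2). Cox7c, a small accessory subunit, had 59.2, 55.8 and 51.6 CPM in the KO libraries and 81.9, 96.8, 70.2 and 92.3 CPM in the WT libraries, without overlap (log2 difference -0.62 ± 0.15 SE, edgeR adjusted p = 0.0942). The small subunit Cox6c had 160.1, 138 and 147 CPM in the KO libraries and 242, 319, 186 and 295 CPM in the WT libraries. Its KO values were all under WT library 3 (log2 difference -0.81 ± 0.20 SE, edgeR adjusted p = 0.0994). Cox7b, needed for assembly of the complex, had 94.4, 96.6 and 79.99 CPM in the KO libraries and 154, 188, 107 and 182 CPM in the WT libraries, also without overlap (log2 difference -0.80 ± 0.21 SE, edgeR adjusted p = 0.113). Cox7c, Cox6c and Cox7b have 3, 2 and 2 near-identical copies in the genome, and Cox6c shares exons with Vps13b.

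Several complex IV subunits exist as tissue isoforms. Cox4i1, the general form of the subunit that regulates the enzyme by ATP, had 210.1, 223 and 234 CPM in the KO libraries and 228, 219.6, 229 and 367 CPM in the WT libraries. WT library 4 stood alone above the other 6 libraries, and the log2 difference of -0.23 (SE 0.21) became 0.0397 without KO library 1 and WT library 4. Cox6a1, the non-muscle form, had 256, 245 and 201 CPM in the KO libraries and 274, 236, 243 and 532 CPM in the WT libraries, with the same library on top and overlapping groups (log2 difference -0.46 ± 0.31 SE). Cox8a, the general form of its subunit, had 204, 196 and 189.6 CPM in the KO libraries and 264, 258, 233 and 352 CPM in the WT libraries, with no overlap (log2 difference -0.49 ± 0.16 SE, edgeR adjusted p = 0.169). Cox4i1 shares exons with Emc8.

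The somatic isoform Cox6b1 had 165, 151 and 126 CPM in the KO libraries and 245, 271, 185 and 334 CPM in the WT libraries, every KO library lying below every WT library (log2 difference -0.81 ± 0.21 SE, edgeR adjusted p = 0.114). Cox6b2, its testis counterpart, had 5.83, 0.652 and 2.48 CPM in the KO libraries and 0.869, 1.23, 1.25 and 2.90 CPM in the WT libraries. It gave the highest positive log2 difference of the members, 0.93 (SE 0.75), but the groups overlapped and KO library 1 alone was high. Per kilobase of annotated exon, Cox6b1 was at 208 ± 27.8 RPKM in KO (SD, n = 3) and 366 ± 87.2 RPKM in WT (SD, n = 4), and Cox6b2 at 2.695 ± 2.37 RPKM in KO (SD, n = 3) and 1.41 ± 0.820 RPKM in WT (SD, n = 4). Cox7a2, the general form, had 97.8, 88.9 and 94.3 CPM in the KO libraries and 139, 175, 108 and 189 CPM in the WT libraries, with no overlap (log2 difference -0.70 ± 0.20 SE, edgeR adjusted p = 0.132). Cox7a1, the muscle form, was low at 0.321, 0.116 and 0.205 CPM in the KO libraries and 0.317, 0.202, 0.173 and 0.966 CPM in the WT libraries. Cox7a2l, which encodes a related protein, had 72.7, 117 and 107 CPM in the KO libraries and 98.8, 108, 91.3 and 92.5 CPM in the WT libraries. Its log2 difference was 0.02 (SE 0.18) and changed sign with the libraries used, unlike that of Cox7a2, whose sign held in every alternative run.

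In complex V, 15 of the 17 members lay below 0. Atp5h, subunit d of the peripheral stalk, had 164, 186 and 192 CPM in the KO libraries and 304, 349.8, 247 and 335 CPM in the WT libraries. The KO libraries were all far under the lowest WT library (log2 difference -0.78 ± 0.15 SE, adjusted p of 0.073 in edgeR and 0.000855 in DESeq2). Atp5md, a small membrane subunit also called DAPIT, had 55.7, 47.9 and 42.2 CPM in the KO libraries and 87.3, 113, 64.8 and 104 CPM in the WT libraries, without overlap (log2 difference -0.93 ± 0.22 SE, edgeR adjusted p = 0.0901). Atp5mpl, another small membrane subunit, had 59.5, 47.7 and 44.0 CPM in the KO libraries and 88.7, 103, 61.3 and 107 CPM in the WT libraries, with KO library 1 just under WT library 3 (log2 difference -0.84 ± 0.22 SE, edgeR adjusted p = 0.115). Atp5j2, subunit f, had 151, 144 and 119.9 CPM in the KO libraries and 228, 271, 163 and 279.8 CPM in the WT libraries, without overlap (log2 difference -0.77 ± 0.21 SE, edgeR adjusted p = 0.121). Atp5h and Atp5md each have 3 near-identical copies, and Atp5md shares exons with Taf5.

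The peripheral stalk and the accessory membrane subunits of ATP synthase lay further below WT than its catalytic head. The 4 peripheral stalk members had a median of -0.77 and all 4 were lower at an unadjusted p under 0.05, and the 5 membrane accessory members had a median of -0.84 with 4 lower. The 5 members of the F1 head had a median of -0.27 with 2 lower, and the 3 genes of the c ring had a median of -0.26 with 0 lower. The share of all genes lower at that p was 7.89%. Coding length also differs between these classes and was not separated from class. Shared exons or near-identical copies make the counts of all 4 stalk members (Atp5h, Atp5j, Atp5o and Atp5pb) uncertain. The same holds for Atp5k, Atp5l and Atp5md among the membrane members, Atp5a1 and Atp5d in the head, and Atp5g1 and Atp5g2 in the c ring. Atp5b, the catalytic beta subunit, had 839, 1008 and 1052 CPM in the KO libraries and 823, 750.3, 821 and 1389.6 CPM in the WT libraries, with the KO libraries inside the WT range (log2 difference 0.03 ± 0.25 SE). Atp5a1, its alpha partner, had 665, 668 and 678 CPM in the KO libraries and 737, 675, 729.9 and 1089.7 CPM in the WT libraries, with KO libraries 1 and 2 below the lowest WT library and KO library 3 just above it (log2 difference -0.27 ± 0.20 SE); it shares exons with Haus1. Atp5l, subunit g, lay above 0 at 0.10 (SE 0.26), but 8 near-identical copies leave its low count of 15.6 ± 2.97 CPM over the KO libraries (SD, n = 3) and 14.6 ± 3.01 CPM over the WT libraries (SD, n = 4) uncertain. The difference between these classes was not tested.

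**Figure D2:**
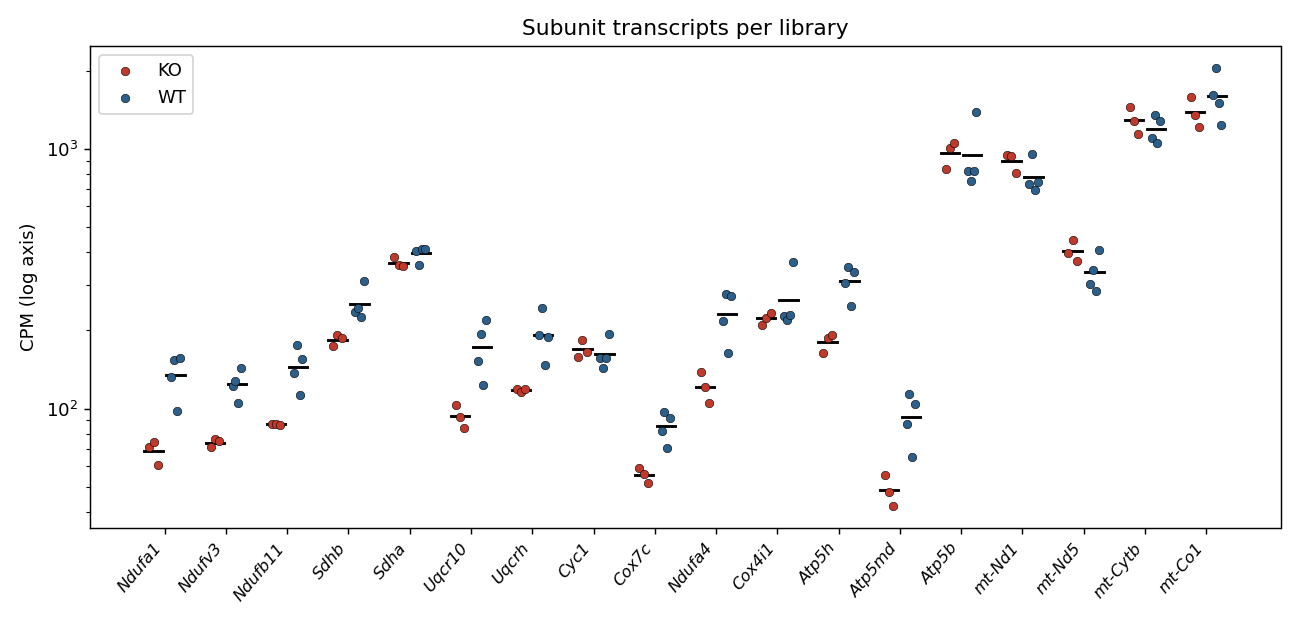
Each point is the CPM of 1 gene in 1 library on a log axis, KO left of WT, with a bar at the group mean. The 18 genes are the nuclear ones ordered by complex, then the mitochondrial ones ordered by complex. Groups are apart for genes such as Ndufv3, Ndufa4 and Atp5h and overlap for Cyc1, Atp5b and the mitochondrial genes.

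The mitochondrial genes lay near or above WT. The complex I genes mt-Nd1 and mt-Nd2 build the proton-pumping membrane arm. The first had 942, 940.1 and 809 CPM in the KO libraries and 729.6, 951, 691 and 747 CPM in the WT libraries, and the second 289, 329.7 and 253 CPM in the KO libraries and 224, 248, 196 and 286 CPM in the WT libraries. Their log2 differences were 0.20 (SE 0.16) and 0.29 (SE 0.17), with groups that overlapped through WT library 2 for the first and WT library 4 for the second. The membrane-arm gene mt-Nd5 had 398, 446 and 370.1 CPM in the KO libraries and 302, 342, 283 and 409 CPM in the WT libraries, a log2 difference of 0.28 (SE 0.16) and an edgeR adjusted p of 0.411 and groups that overlapped through WT library 4. The other large pump subunit, mt-Nd4, had 311, 374 and 276 CPM in the KO libraries and 262, 308, 235 and 365 CPM in the WT libraries and a log2 difference of 0.13 (SE 0.19). These 4 genes kept a positive log2 difference in every alternative that was run, although KO and WT overlapped in each.

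The remaining mitochondrial genes lay nearer to 0 or below it. The cytochrome b gene of complex III, mt-Cytb, had 1445, 1273 and 1136 CPM in the KO libraries and 1101, 1346, 1051 and 1279.7 CPM in the WT libraries, with overlapping groups (log2 difference 0.10 ± 0.17 SE). The catalytic core subunit of complex IV, mt-Co1, had 1582, 1352 and 1215 CPM in the KO libraries and 1607, 2048, 1501 and 1238 CPM in the WT libraries, with WT library 2 highest and WT libraries 3 and 4 among the KO values (log2 difference -0.21 ± 0.21 SE). Of the genes with the lowest counts, mt-Nd6, the protein gene on the opposite strand, had 91.7, 81.7 and 50.1 CPM in the KO libraries and 72.1, 74.2, 57.1 and 146 CPM in the WT libraries, and mt-Nd3 had 10.1, 5.87 and 4.45 CPM in the KO libraries and 6.69, 10.1, 6.76 and 5.05 CPM in the WT libraries. Their log2 differences of -0.23 (SE 0.36) and -0.07 (SE 0.39) changed sign under other settings, so neither has a direction. Exons of mt-Nd5 and mt-Nd6 overlap on opposite strands, and mt-Co1 and mt-Nd3 each have a near-identical copy in the annotation. Per kilobase of annotated exon, mt-Cytb was at 1123 ± 135 RPKM in KO (SD, n = 3) and 1044 ± 123 RPKM in WT (SD, n = 4) and mt-Nd3 at 19.6 ± 8.45 RPKM in KO (SD, n = 3) and 20.6 ± 6.11 RPKM in WT (SD, n = 4), although both come from polycistronic transcripts.

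Set against each other within a library, which removes the scaling between libraries, mitochondrial counts took a larger part of the chain in KO. The log2 ratio of summed mitochondrial to summed nuclear member counts was -0.88, -0.98 and -1.17 in the KO libraries and -1.46, -1.22, -1.37 and -1.81 in the WT libraries. All KO libraries lay above all WT libraries, by 0.45 on average (-1.01 ± 0.14 in KO, SD, n = 3, and -1.46 ± 0.25 in WT, SD, n = 4), a ratio 1.37-fold higher in KO. In complex I alone the ratio averaged -0.39 ± 0.09 over the KO libraries (SD, n = 3) and -1.08 ± 0.09 over the WT libraries (SD, n = 4), a difference of 0.68 that was larger than the spread in either group. In complex III it was 0.27 ± 0.17 in KO and -0.25 ± 0.10 in WT, again with no overlap. In complex IV it was -0.17 ± 0.13 in KO and -0.53 ± 0.52 in WT, with overlap. WT libraries 2 and 3, at -0.18 and -0.25, lay among the KO values of -0.03, -0.21 and -0.28, WT library 1 was at -0.40, and WT library 4 stood apart at -1.30.

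The numerator of that ratio differed less between the groups than its denominator. Summed mitochondrial member CPM was 5070.0, 4802 and 4113 in KO and 4304, 5328, 4021 and 4476 in WT, with full overlap. Nuclear members took 0.926 to 1.03% of all counts in KO and 0.992 to 1.56% in WT, and mitochondrial members 0.429 to 0.520% in KO and 0.383 to 0.524% in WT. The mitochondrial ribosomal RNAs also overlapped between groups. The small one, mt-Rnr1, had 200.4, 284 and 190.4 CPM in the KO libraries and 173, 239, 126 and 262 CPM in the WT libraries, and the large one, mt-Rnr2, had 1587, 1492 and 975 CPM in the KO libraries and 1567, 1962, 1269 and 1349 CPM in the WT libraries. Without KO library 1 and WT library 4 the overall difference in the log2 ratio was 0.28.

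**Figure D3:**
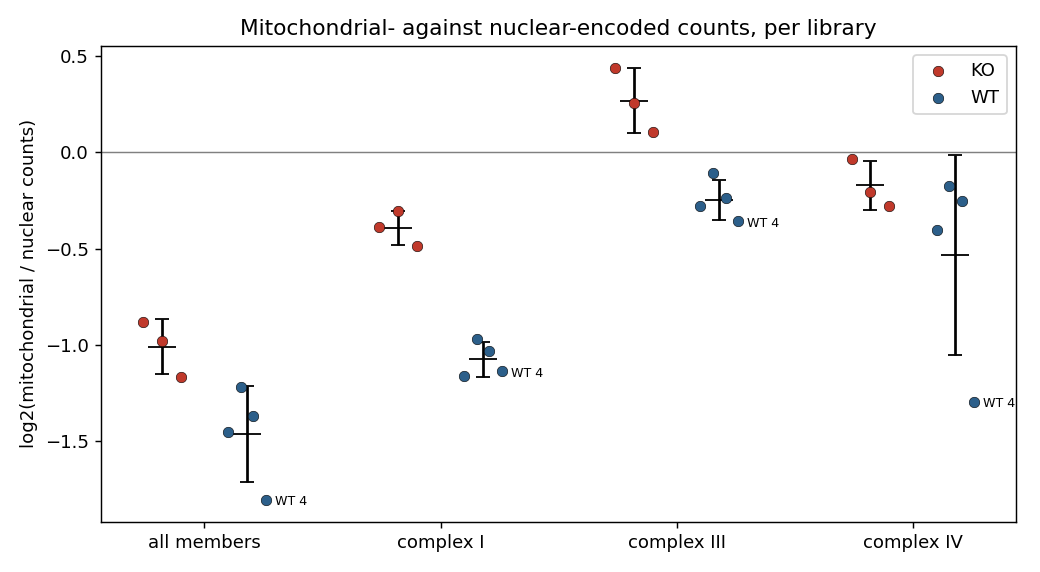
The log2 ratio of mitochondrial to nuclear member counts is plotted per library, KO left of WT, with bars for the mean and SD, over all members and for complexes I, III and IV. KO and WT are apart in complex I (-0.39 and -1.08 on average) and overlap in complex IV, where WT 4 lies at -1.30.

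Library by library, the nuclear members of the KO libraries had medians of -0.42, -0.51 and -0.58 relative to the WT mean. Among these libraries KO library 1 had the most B cell, red cell and myeloid counts, KO library 3 the fewest B cell and red cell counts, and KO library 2 the fewest myeloid counts. The WT libraries were at -0.05, 0.0044, -0.28 and 0.28. WT library 3 thus lay between the other WT libraries and KO, and against it alone the KO medians were -0.14, -0.20 and -0.25, with 61, 63 and 69 of the 80 nuclear members lower. WT library 3 lay 0.63 below WT library 4, a gap within WT larger than the median difference between the groups. WT library 4 had the highest level of cell cycle genes and of nuclear members; leaving it out gave a nuclear median of -0.38, and leaving out KO library 1 gave -0.55. The part of cell cycle or of other cells in these levels was not tested further. The mitochondrial members were at 0.28, 0.19 and -0.06 in KO and -0.10, 0.14, -0.20 and 0.19 in WT.

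**Figure D4:**
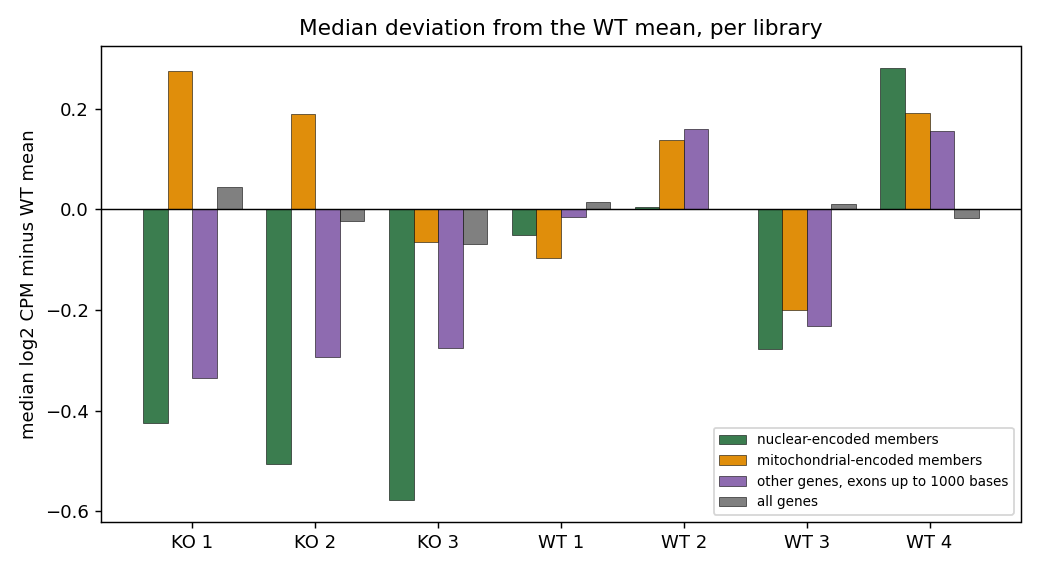
Bars give, for each library, the median log2 CPM relative to the WT mean over nuclear members, mitochondrial members, other protein-coding genes with exons of up to 1000 bases, and all genes. Nuclear members are at -0.42 to -0.58 in KO and -0.28 to 0.28 in WT, and short other genes lie on the same side of 0 as nuclear members in all 7 libraries.

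The members with the most negative log2 differences were mostly those with short coding sequences. Of the 21 nuclear members with a coding length of up to 300 bases, 19 were lower at an unadjusted p under 0.05 and the median was -0.77. Of 37 with 300 to 600 bases, 17 were lower (median -0.45), and of 22 longer ones, 11 were lower (median -0.30). The share of all genes lower at that p was 7.89%. Across the 80 genes Spearman's rho between log2 difference and coding length was 0.51, a description across genes that share libraries and are not independent. Other genes showed a related gradient. Among protein-coding genes whose mean log2 CPM reached 5 and with up to 1000 bases of annotated exon, 15 nuclear members had a median of -0.65 and 78 other genes one of -0.35, of which 82.1% lay below 0. With more than 4000 bases, 8 members had a median of -0.29 and 3695 other genes one of -0.09. Relative to the WT mean, the short other genes were at -0.33, -0.29 and -0.28 in KO and -0.02, 0.16, -0.23 and 0.16 in WT, low in WT library 3 as the members were. The part of transcript length or RNA quality in the members' values was not tested.

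**Figure D5:**
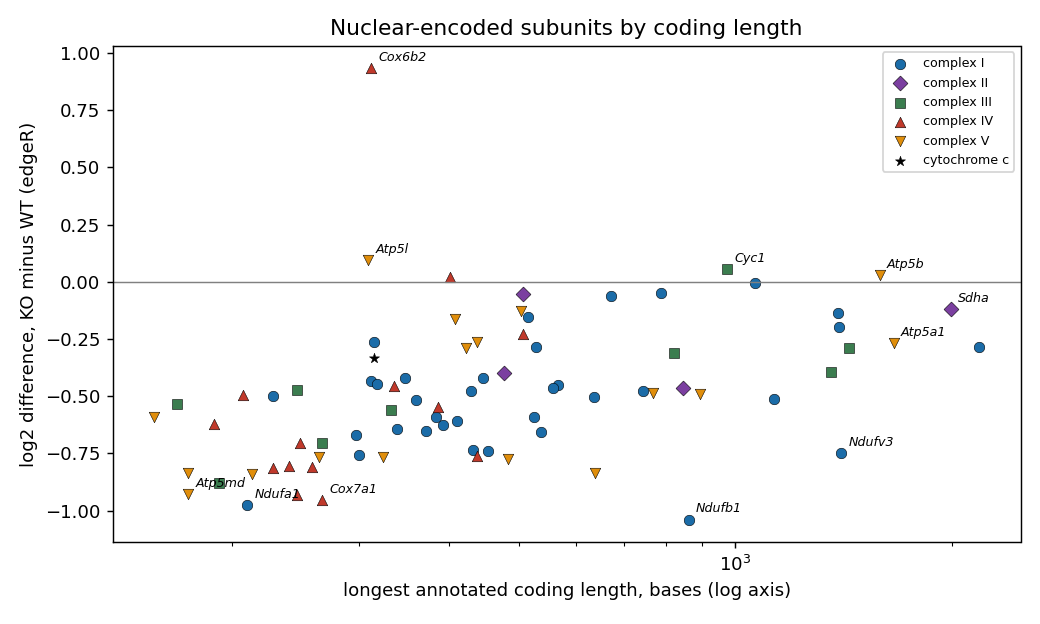
Each point is 1 nuclear member, with its longest annotated coding length in bases on a log axis and its log2 difference between KO and WT on the vertical axis, marked by complex. Members of up to 300 bases have a median of -0.77 and those above 600 bases one of -0.30. Ndufv3 is long but low, and the length of Ndufb1 rests on a doubtful annotation.

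Promoter sequences are shown for 3 nuclear members that hold a match to an element of factors known to act on respiratory chain genes: NRF1, GABPA (part of GA-binding protein) and YY1. Promoter windows (250 bases before to 50 after the start, RefSeq, GRCm38.p6) were found for 67 of the 80 nuclear members, and both strands were searched. For each element, the matching member with the smallest p was chosen, after the matches were known. Atp5j (chr16:84834927-84835226, minus strand, the second of its 2 windows) encodes coupling factor F6 of the peripheral stalk and starts beside the gene for GABPA itself. Atp5h lies at chr11:115419870-115420169 and Ndufa9, a Q-module subunit, at chr6:126849095-126849394, both on the minus strand. Capitals mark the matches, CGCATGCG for NRF1, AAGATGGCG for YY1 and CCGGAAG or its reverse complement for GABPA.
Atp5j: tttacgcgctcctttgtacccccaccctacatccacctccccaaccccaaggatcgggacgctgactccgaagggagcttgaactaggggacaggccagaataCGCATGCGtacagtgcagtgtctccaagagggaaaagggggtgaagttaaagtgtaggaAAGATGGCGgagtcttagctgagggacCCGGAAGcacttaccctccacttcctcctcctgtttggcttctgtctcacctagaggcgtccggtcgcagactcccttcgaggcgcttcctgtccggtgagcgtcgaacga
Atp5h: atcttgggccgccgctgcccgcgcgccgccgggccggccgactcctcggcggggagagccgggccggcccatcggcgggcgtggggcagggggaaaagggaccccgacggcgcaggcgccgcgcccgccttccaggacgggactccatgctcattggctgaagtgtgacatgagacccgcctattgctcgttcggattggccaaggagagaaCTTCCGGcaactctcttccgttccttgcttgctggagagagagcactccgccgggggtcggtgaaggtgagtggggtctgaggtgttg
Ndufa9: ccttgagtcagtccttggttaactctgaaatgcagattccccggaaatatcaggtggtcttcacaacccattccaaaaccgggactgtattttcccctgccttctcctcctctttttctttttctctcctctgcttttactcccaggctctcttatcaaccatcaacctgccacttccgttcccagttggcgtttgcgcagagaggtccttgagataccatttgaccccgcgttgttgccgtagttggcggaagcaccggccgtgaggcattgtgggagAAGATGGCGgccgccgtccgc
In the Atp5j window the NRF1, YY1 and GABPA letters begin at -147, -88 and -61, counted from the start base as 0, the Atp5h match begins at -38, and the Ndufa9 match lies past the start, at 29. The NRF1 letters occurred in 10 of the 67 members (14.9%) and 2.07% of all 27025 genes with windows, the GABPA letters in 17 (25.4%) and 9.93%, and the YY1 letters in 7 (10.4%) and 1.64%. At least 1 element was present in 17 of the 39 members that were lower at an unadjusted p under 0.05 and in 11 of the other 28. A match is a description and not a binding site. Atp5j had 153, 142 and 138 CPM in the KO libraries and 219, 259, 163 and 338 CPM in the WT libraries, without overlap (log2 difference -0.77 ± 0.24 SE), Ndufa9 a log2 difference of -0.51 (SE 0.14), and Gabpa -0.35 (SE 0.16); Atp5j and Gabpa share exons in the annotation.

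The factors that build the complexes differed less between KO and WT than the subunits. Of 51 assembly factors tested, 33 lay below 0, with a median of -0.12, and 11 (21.6%) were lower and 2 higher at an unadjusted p under 0.05. Over all genes, 7.89% were lower and 11% higher at that p. The 51 include Ndufab1, a complex I subunit that was listed with the factors. Lower at that p were 2 of 16 for complex I (12.5%), 1 of 4 for complex II (25%), 1 of 6 for complex III (16.7%), 5 of 20 for complex IV (25%) and 2 of 5 for complex V (40%). Cox16 had 9.33, 8.47 and 8.52 CPM in the KO libraries and 15.9, 20.8, 13.2 and 16.7 CPM in the WT libraries, without overlap (log2 difference -0.92 ± 0.24 SE, edgeR adjusted p = 0.108), and Surf1, an early complex IV assembly factor, had 52.8, 50.6 and 53.5 CPM in the KO libraries and 71.0, 74.7, 64.3 and 69.1 CPM in the WT libraries, also without overlap (log2 difference -0.42 ± 0.11 SE). For complex I, Ndufaf2 had a log2 difference of -0.97 (SE 0.33) and Ndufaf1 -0.44 (SE 0.16). For complex II, Sdhaf4 was at -0.58 (SE 0.22) and Sdhaf1 at 0.57 (SE 0.33), and for complex III, Uqcc2 was at -0.63 (SE 0.24) and Bcs1l, which inserts the Rieske protein, at 0.56 (SE 0.24). For complex V, Tmem70 and Fmc1 were at -0.40 (SE 0.15) and -0.45 (SE 0.19).

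Genes that express mitochondrial DNA had no shift below WT. Of 29, 11 lay below 0 and 18 above (median 0.08), with 0 lower and 4 higher at an unadjusted p under 0.05, where 11% of all genes were higher. Lrpprc, which stabilizes mitochondrial mRNA, had 94.8, 97.9 and 94.4 CPM in the KO libraries and 74.9, 62.9, 74.7 and 64.2 CPM in the WT libraries, every KO library lying above every WT library (log2 difference 0.47 ± 0.12 SE, adjusted p of 0.103 in edgeR and 0.0027 in DESeq2). Prorp, the catalytic part of mitochondrial RNase P, was at 0.68 (SE 0.25). Of 9 regulators of biogenesis, 0 were lower and 1 higher at that p, a share close to the 11% of all genes. It was Pprc1, a coactivator of the PGC-1 family, with 84.8, 133 and 118 CPM in the KO libraries and 64.4, 62.6, 69.0 and 50.7 CPM in the WT libraries and no overlap (log2 difference 0.86 ± 0.18 SE, edgeR adjusted p = 0.0804).

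Other routes into the chain and general mitochondrial genes had list medians near 0. Over all genes, 7.89% were lower and 11% higher at an unadjusted p under 0.05 (edgeR quasi-likelihood test). Of 14 genes for ubiquinone synthesis and cytochrome c, 7 lay on each side (median 0.02). At that p 2 were higher, a share close to that of all genes: Coq5 (0.42 ± 0.14 SE) and Coq6 (0.62 ± 0.22 SE). Of 6 enzymes that feed electrons to ubiquinone, 3 lay on each side (median 0.005). In this short list 2 were higher at that p, a larger share than the 11% of all genes. Sqor, sulfide quinone oxidoreductase, had 7.05, 2.84 and 4.48 CPM in the KO libraries and 0.965, 0.606, 0.672 and 0.526 CPM in the WT libraries, a log2 difference of 2.78 (SE 0.45) and an adjusted p of 0.0651 in edgeR and 9.76e-07 in DESeq2. It was highest in KO library 1, where B cell and myeloid genes were highest too, and whether it came from T cells was not tested. Gpd2, the glycerol phosphate dehydrogenase, was at 0.37 (SE 0.15). Of 18 genes of general mitochondrial content, with a median of -0.02, 1 was lower and 2 were higher, shares close to those of all genes. The lower gene was Opa1, a fusion protein (-0.37 ± 0.11 SE). Among the higher was the chaperone Hspa9, with 202, 276 and 275 CPM in the KO libraries and 163, 153, 184 and 154 CPM in the WT libraries (log2 difference 0.62 ± 0.15 SE, edgeR adjusted p = 0.0973).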

How the data were processed

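Total RNA of 7 libraries was sequenced. The tools were Trim Galore 0.6.0, STAR 2.7.8 (genome build mm10) and DESeq2 without a version, per the submitters' processing notes. Not given in the sources used here are the read assignment, annotation, strand setting and filters. What the authors deposited was a table of raw counts of 16156 genes and a deposited table of log2 CPM. These log2 values equalled values recomputed here (TMM, prior count 2) within 4.99e-09. CPM were computed from the counts with TMM scaling, and RPKM from annotated exon length (GENCODE M21). A count of 3 equals 0.0397 to 0.0801 CPM, depending on the library.

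KO and WT were compared over all genes with edgeR 4.0.16 (quasi-likelihood, R 4.3.3, two-sided, Benjamini-Hochberg adjustment, threshold 0.05), tested on simulated data; filterByExpr removed 0 genes. DESeq2 1.42.0 and limma 3.58.1 were alternatives, beside other scalings, filters, a replicate block and left-out libraries. The members and lists were chosen with earlier results of these data known, and lists are described without a set test. Named were all mitochondrial members, all of complex II, the members of smallest p in the other complexes, Cycs, the 3 of largest positive difference with a mean log2 CPM of at least 1, isoform pairs, Acly, and 2 genes of each other list; marker genes are given as sums. Others (such as Atp5b, Cyc1, Uqcrfs1, Uqcrc1, Ndufs7 and Ndufa9) were chosen after their values were seen. Of the members, 24 share exons with another measured gene and 23 have a copy of at least 95% identity over 80% of the coding length (BLAST 2.17.0), so those counts are uncertain. A single gene is not reported here by name. The element letters searched in promoters were settled after a longer form of the NRF1 element had been tried.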

Additional observations from a re-analysis of the deposited data

Results flagged for a closer look

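In 4 of the 56 sets of WT values looked at, 1 WT library lay far from the other WT libraries relative to their range; chance alone gives about 1 in 20. Sdha was low in WT library 2, at 356 CPM, where the other WT libraries held 403 to 411 CPM. Cox4i1 was high in WT library 4, at 367 CPM against 219.6 to 229 CPM in the others, and so was Cox6a1, at 532 CPM against 236 to 274 CPM. Summed CPM of complex II was also high in WT library 4, at 1068 against 890.3 to 914. No KO group was tested in this way, since it holds 3 libraries.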

How the results depend on the processing

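Members called by edgeR stayed at 0 under other scalings, filters, the replicate block and each left-out library. DESeq2 called 26, limma voom 1, and edgeR without KO library 1 and WT library 4 called 4. The shares of all genes called lower in those runs were 3.43, 1.68 and 4.2%. Members lower at an unadjusted p under 0.05 numbered 35 to 50 when single libraries were left out, against 47 with all. The share of all genes lower when single libraries were left out was 4.91 to 10.9%. The nuclear median then ranged from -0.58 to -0.38, the mitochondrial median from 0.04 to 0.21, and the difference in the log2 ratio from 0.34 to 0.53. Replicate numbers did not pair the samples (correlations of -0.11, -0.05 and 0.14 between same-numbered libraries). With the replicate block the nuclear median was -0.37, the mitochondrial median 0.17 and the count lower at that p 37, and the median of nuclear complex IV members was -0.43. Leaving out members with shared exons gave a nuclear median of -0.49, and leaving out those with near-identical copies, an alternative chosen after seeing the data, gave -0.48. No median of the nuclear or mitochondrial members changed sign in any alternative run.

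Some single log2 differences near 0 changed sign, and the cause was not tested. The values below do not cover every member that changed sign. Nuclear members below 0 numbered 75 in the main fit, 74 in DESeq2, 72 with upper-quartile scaling and 71 with the replicate block. The number was 77 without KO library 2, 70 without WT library 4 and 65 without KO library 1 and WT library 4. Ndufa10 was at 0.0196 in DESeq2. Sdhc was at 0.00303 with upper-quartile scaling, 0.0402 with limma voom, 0.10 with the block, -0.17 to 0.11 with 1 library left out (0.00979 without KO library 1, 0.00224 without KO library 2 and 0.11 without WT library 4), and 0.19 without KO library 1 and WT library 4. For mt-Nd6 the values were 0.0222 with limma voom, 0.10 with the block, and -0.41 (without KO library 1) to 0.14 (without WT library 4). Cox7a2l was at -0.0310 with the block, at -0.12, -0.0398, -0.0113 and -0.000857 without KO library 2, KO library 3, WT library 3 and WT library 4, and at 0.20 without KO library 1. For mt-Nd3 the values were 0.0245, 0.16 and 0.14 without KO library 2, KO library 3 and WT library 2, and -0.47 without KO library 1. Cox4i1 was at 0.0397 without KO library 1 and WT library 4. Cox7a1 had the lowest counts of the members, so depth limits its values most.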
